A study of Mus musculus with 6 samples.

Results

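The transcripts of cytokine receptors and of the TNF superfamily were compared between liver macrophages of Trem2-deficient mice and of their wild-type littermates. Members were the protein-coding genes whose symbol starts with Tnfrsf, Tnfsf, Csf1r, Csf2r, Csf3r, Ifngr, Ifnar, Tgfbr or an interleukin receptor name other than those beginning Il1r, together with Tnf itself. These were 82 of the 54532 genes in the deposited table, with 80 distinct symbols, since Il11ra2 has several entries. Of these, 50 passed the filter on low counts and were tested among 13776 genes. The other 32 had at most 43 reads over all libraries and at most 16 in any library, and 5 of them had no read at all.

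Kupffer cells, which are macrophages that live in the sinusoids of the liver, were sorted from male mice and sequenced as RNA in 3 libraries of Trem2 knockout animals (Trem2_KO) and 3 of control littermates (WT). Both groups were 8 weeks old when they began a high fat diet that lasted 8 weeks, so no library shows cells without that diet. Trem2 encodes a lipid-binding receptor of macrophages. The sources used here do not give the strain, the part of Trem2 that was deleted or how many mice each library holds. The p-values therefore measure only the spread between these libraries, which may be technical.

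Total counts were 15799351 to 15893041 in WT and 16347967 to 17135603 in Trem2_KO. Levels within a gene are CPM, counts scaled to the size of the library, after TMM scaling, which corrects for differences in library composition. Trem2 had 84.3 to 90.1 CPM in WT and 14.5 to 17.4 CPM in Trem2_KO. The Kupffer cell markers Clec4f and Cd5l were abundant in both groups. Of 12 such markers 9 were called lower and 0 higher in Trem2_KO (adjusted p under 0.05), against 15.1% and 15.3% of all tested genes. The summed level of these markers was 40736 to 41908 CPM in WT against 37096 to 37496 CPM in Trem2_KO. Csf1r, part of the receptor set, is on that list and was not called. Of 16 sinusoidal endothelial markers 13 were called higher and 1 lower, with a median log2 change (Trem2_KO over WT) of 0.45. Their sum was 2019 to 2042 CPM in WT against 1997 to 2013 CPM in Trem2_KO, so it did not follow most of these markers. Their part in the results for the receptors was not tested. In RNA from bulk sorted cells, fewer cells of a type and less RNA per cell cannot be told apart.

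Cytokines act through receptors assembled from a few shared chains. Interferons, GM-CSF, G-CSF and most interleukins use chains without enzymatic activity of their own, which pass the signal to Janus kinases and STAT proteins. CSF1 and TGF-beta receptors are kinases themselves, and the latter act on SMAD proteins. Receptors of the TNF superfamily bind trimeric ligands and recruit adaptor proteins that lead to NF-kB activity or, in members with a death domain, to cell death. Macrophages depend on CSF1 receptor signalling for survival, and Kupffer cells are a main source of TNF in the liver.

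Upstream sequences are shown for 4 members: the cytokine Tnf, which rose, one of its receptors (Tnfrsf1b), which fell, and the receptors Tnfrsf21 and Csf2rb2, which rose. Each is the 250 bases before the annotated start from RefSeq (GRCm38.p6), 5′ to 3′ on the strand of the gene, with capitals for matches to any of 5 motifs. The regions are chr17:35202008-35202257 (minus strand) for Tnf, chr4:145246871-145247120 (minus strand) for Tnfrsf1b, chr17:43016305-43016554 (plus strand) for Tnfrsf21 and chr15:78305722-78305971 (minus strand) for Csf2rb2.
Tnf: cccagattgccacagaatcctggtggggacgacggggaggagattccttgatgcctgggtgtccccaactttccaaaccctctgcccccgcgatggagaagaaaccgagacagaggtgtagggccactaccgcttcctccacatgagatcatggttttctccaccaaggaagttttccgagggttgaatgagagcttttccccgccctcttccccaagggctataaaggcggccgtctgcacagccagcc
Tnfrsf1b: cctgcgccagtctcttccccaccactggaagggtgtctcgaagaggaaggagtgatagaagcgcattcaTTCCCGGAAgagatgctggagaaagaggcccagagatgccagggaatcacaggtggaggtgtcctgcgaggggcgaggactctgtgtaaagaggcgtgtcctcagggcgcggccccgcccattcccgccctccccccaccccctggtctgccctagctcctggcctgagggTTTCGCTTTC
Tnfrsf21: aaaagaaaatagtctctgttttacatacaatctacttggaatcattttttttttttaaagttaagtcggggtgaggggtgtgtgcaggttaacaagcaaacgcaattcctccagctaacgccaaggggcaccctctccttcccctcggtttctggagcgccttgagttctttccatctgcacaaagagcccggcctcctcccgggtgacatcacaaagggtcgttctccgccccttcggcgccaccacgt
Csf2rb2: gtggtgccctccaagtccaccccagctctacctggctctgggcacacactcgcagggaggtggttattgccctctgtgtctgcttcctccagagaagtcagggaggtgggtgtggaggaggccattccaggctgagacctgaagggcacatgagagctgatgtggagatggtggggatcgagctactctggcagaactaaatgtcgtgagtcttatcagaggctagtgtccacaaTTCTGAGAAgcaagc

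The motifs, searched on both strands, were the STAT site GAS (TTCNNNGAA), the AP-1 site (TGANTCA), the PU.1 site (GAGGAAGT), the kappaB site of NF-kB and the interferon regulatory factor (IRF) site (GAAA, any 2 bases, GAAA). No match lies in the windows of Tnf and Tnfrsf21. Tnfrsf1b has a GAS match, TTCCCGGAA, 173 to 181 bases before the start, and an IRF match on the opposite strand, 1 to 10 bases before it, and the matches do not overlap. Csf2rb2 has a GAS match, TTCTGAGAA, 7 to 15 bases before the start. The other TNF receptor, Tnfrsf1a, also has one, TTCCGTGAA, 236 to 244 bases before the RefSeq start but inside the gene at its deposited coordinates. Sequences were found for 37 of the 50 tested members, in 42 windows. GAS letters were in 5 of these windows (11.9%), against 7.02% of all 32851 promoter windows of that length. They belong to Csf2rb2 and Il7r, which rose, and Ifnar2, Tnfrsf1a and Tnfrsf1b, which fell. The windows of Il7r and Tnfrsf1a lie within the deposited coordinates of these genes, so their matches are upstream only of the RefSeq start. The kappaB pattern was in 5 windows of members (11.9%, against 7.25% of all windows) and AP-1 in 3 (7.14% against 6.75%). IRF was in 3 (7.14% against 2.98%) and PU.1 in 1 (2.38% against 2.44%). These matches describe letters only.

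Of the 50 tested members, 24 were called at an adjusted p under 0.05 by the quasi-likelihood test of edgeR, 14 higher and 10 lower in Trem2_KO. Over all tested genes 30.4% were called, 15.3% higher and 15.1% lower, and among the members 28% were called higher and 20% lower. The libraries of the groups did not overlap for 28 members (56%), against 41.6% of all tested genes. Tnfsf18 and Il7r, which passed the filter only through their knockout libraries, are counted among the 14 and among the 28. The median log2 change, Trem2_KO over WT throughout, was 0.02 for the members and -0.01 for all genes. With total counts in place of TMM, 61.3% of all calls were higher, against 50.3% with TMM, and 15 members were higher and 7 lower. With TMM, a filter of at least 1 CPM in 3 libraries left out Tnfsf18 and Il7r. Of its 46 members 12 were then higher and 10 lower, and of its 12785 genes 2126 higher and 1990 lower.

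Of the 24 members with a mean of at least 10 FPKM (counts scaled to gene length and library size, a unit that allows levels to be compared between genes), 7 were called higher and 9 lower. Between 1 and 10 FPKM 3 of 11 were called higher and 0 lower, and under 1 FPKM 4 of 15 higher and 1 lower. The share of all tested genes called at each of these levels was not computed. These counts and those above are therefore not compared with genes of like level. Changes were mostly small: 12 of the 24 called members changed less than 1.2-fold and 8 at least 1.5-fold. Tnfsf18 and Il7r reached the filter level of 0.62 CPM in Trem2_KO libraries only, so genes like them could be tested only where they differed.

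**Figure D1:**
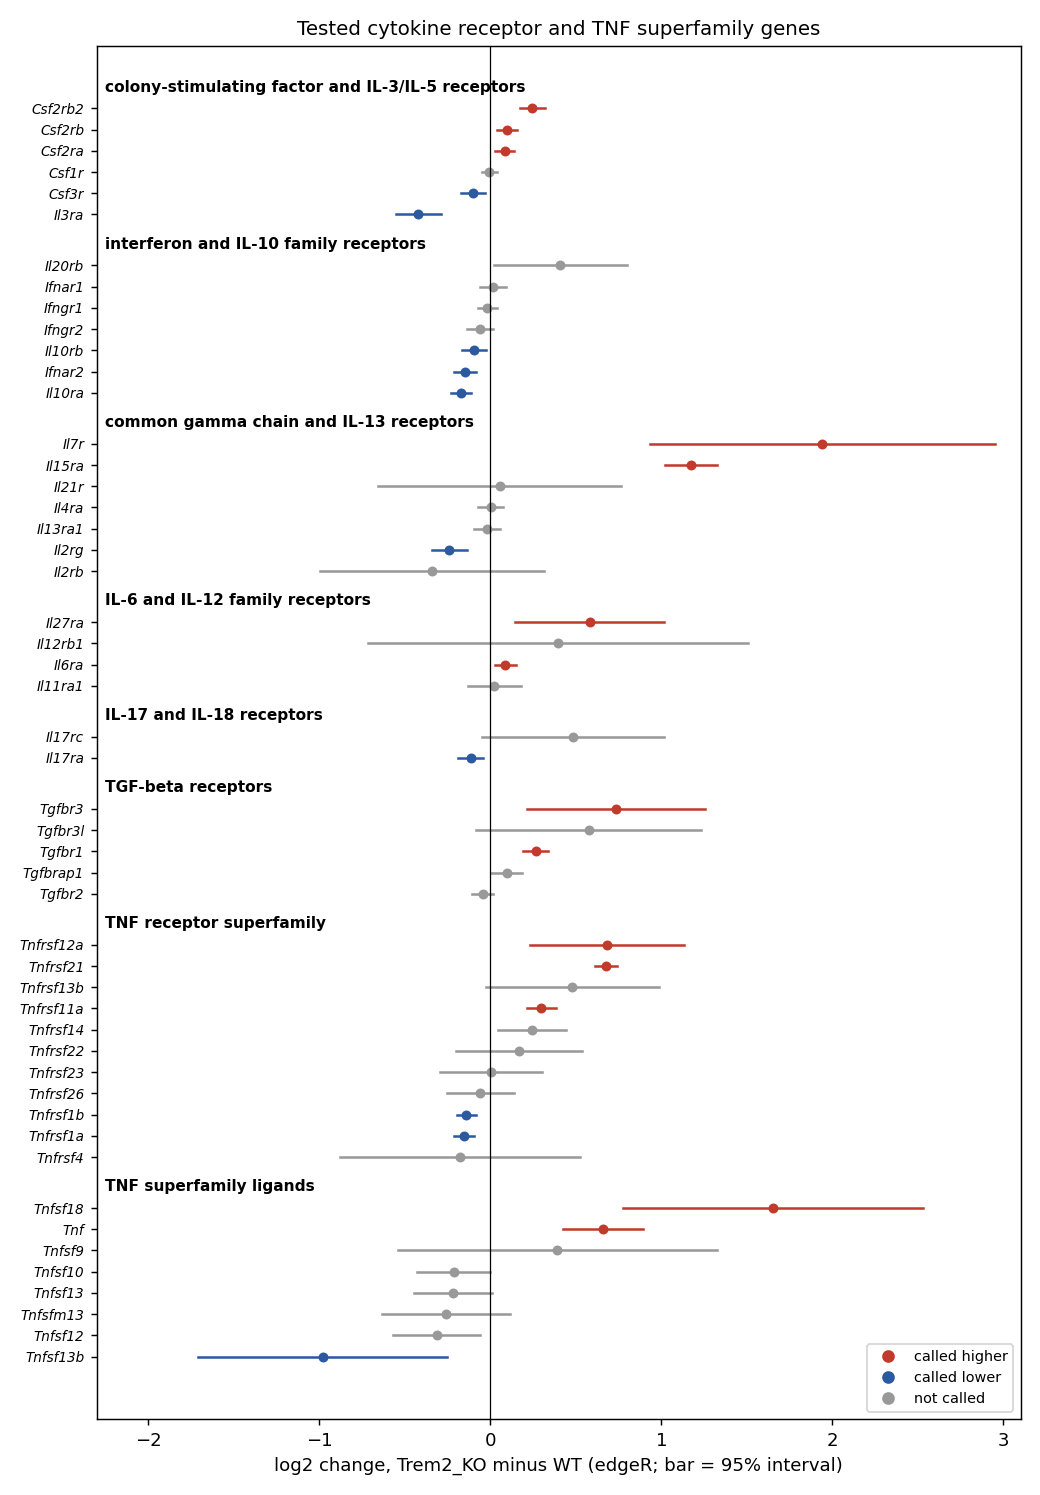
Log2 change (Trem2_KO over WT, edgeR) of the 50 tested members, grouped by role, with bars for the 95% interval and colours for the call. Il7r, Tnfsf18 and Il15ra lie farthest to the right, at 1.94, 1.65 and 1.17, and Tnfsf13b farthest to the left, at -0.98.

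Per gene length, mean levels of the tested members ran from 0.134 FPKM (Il7r) to 1495 FPKM (Csf1r). Csf1r had 1498 ± 23.1 FPKM in WT and 1491 ± 14.3 FPKM in Trem2_KO (mean ± SD, n = 3). Next in level was Csf2ra, with 280.5 ± 3.46 FPKM in WT and 297 ± 5.78 FPKM in Trem2_KO. Ifngr1 followed, with 207 ± 5.34 and 204 ± 1.15 FPKM. These 3 encode the CSF1 receptor and the ligand-binding chains for GM-CSF and interferon-gamma, whose partner chains Csf2rb and Ifngr2 were lower, at means of 66.7 and 35.4 FPKM. Tnfrsf1a had 151 ± 0.959 FPKM in WT, above Tnfrsf1b with 136 ± 0.63 and Il10ra with 117 ± 0.878. Ligand genes of the TNF superfamily were far lower, from Tnfsf13 at 7.47 ± 0.778 FPKM in WT downwards, with Tnf at 4.84 ± 0.113.

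**Figure D2:**
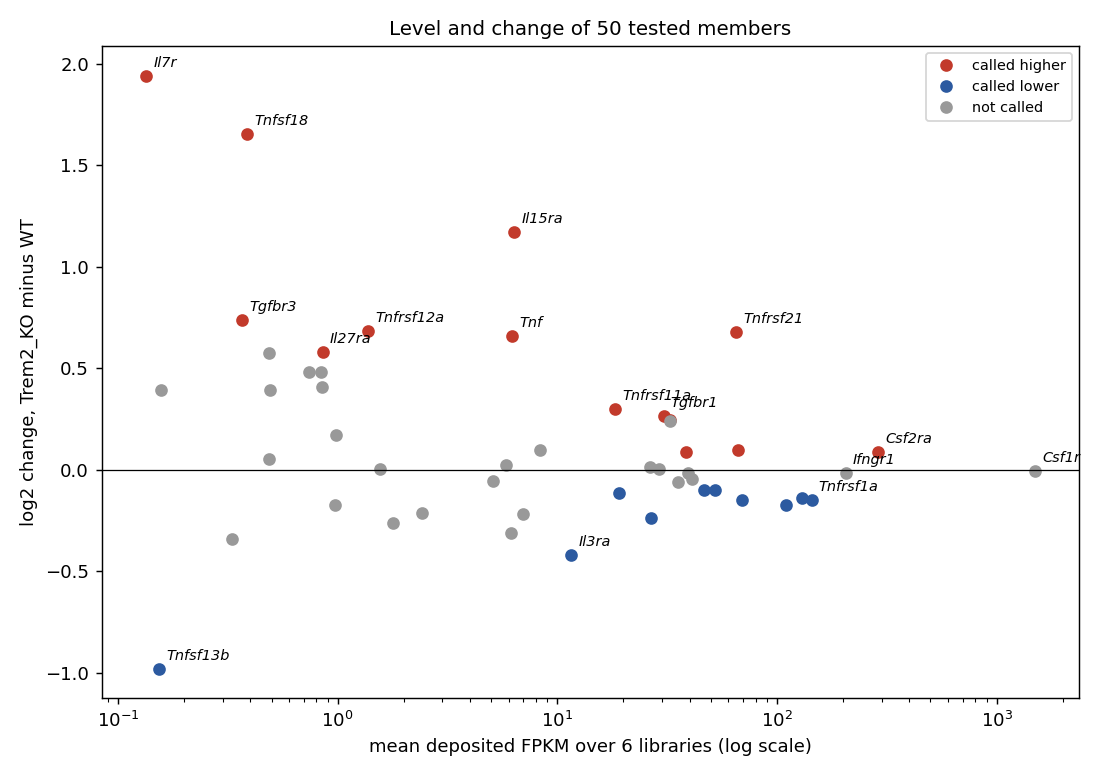
Mean deposited FPKM over the 6 libraries (log axis) against the log2 change of each of the 50 tested members, coloured by call. Tnfrsf21, at 0.68, is the one member above 10 FPKM with a change beyond 0.5 in either direction.

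Among the TNF superfamily ligands, 2 of 8 tested genes rose and 1 fell, against 15.3% and 15.1% of all tested genes. Tnf (ENSMUSG00000024401, chromosome 17, 35199381 to 35202007, GRCm38) encodes the founding cytokine of the family. Its CPM was 8.17, 7.86 and 7.86 in the WT libraries and 12.4, 13.2 and 12.2 in the knockout libraries. All 3 knockout libraries lay above all WT libraries, and the log2 change was 0.66 (SE 0.117, adjusted p = 1.02e-05). Tnfsf18, the ligand of GITR, had 8, 5 and 5 reads in WT and 16, 25 and 21 in Trem2_KO, or 0.511, 0.32 and 0.32 CPM against 0.925, 1.52 and 1.24 CPM. Its log2 change was 1.65 (SE 0.437, adjusted p = 0.00249). Tnfsf18 passed the filter only through its knockout libraries, so the separation of its groups is no added support. Tnfsf13b, which encodes the B cell survival factor BAFF, had 25, 21 and 20 reads in WT and 13, 13 and 10 in Trem2_KO, with every knockout library lower. Its log2 change of -0.98 (SE 0.363, adjusted p = 0.0343) was no longer called without WT replicate 1 or 2 or Trem2_KO replicate 1, 2 or 3 (adjusted p = 0.058 to 0.112), nor with DESeq2 (adjusted p = 0.10).

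The remaining ligands did not pass. Tnfsf10, which encodes the death ligand TRAIL, had 13.2 to 14.6 CPM in WT and 10.6 to 13.1 CPM in Trem2_KO, a difference of -0.21 (adjusted p = 0.129) on the log2 scale. Tnfsf12 (TWEAK) and Tnfsf13 (APRIL) share exon bases with the read-through gene Tnfsfm13, so reads could be split between them. The log2 changes were -0.31 (adjusted p = 0.0511) for Tnfsf12, -0.22 (adjusted p = 0.148) for Tnfsf13 and -0.26 (adjusted p = 0.312) for Tnfsfm13. Tnfsf12 was called without WT replicate 1 or Trem2_KO replicate 1 (adjusted p = 0.0205 to 0.0402). Tnfsf9, the ligand of 4-1BB, had 3 to 15 reads per library and a log2 change of 0.39 (adjusted p = 0.575). Tnfsf11, which encodes RANKL, and Tnfsf4, which encodes OX40L, had no read in any library.

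Both receptors for TNF fell. Tnfrsf1a (chromosome 6), a death domain receptor found on most cells, had 395, 396 and 392 CPM in the WT libraries and 356, 350.4 and 358 CPM in the knockout libraries. Tnfrsf1b (chromosome 4), which lacks a death domain, had 520.3, 521 and 526 CPM in the WT libraries and 469.9, 465 and 488 CPM in the knockout libraries. The groups did not overlap for either gene. The log2 change was -0.15 (SE 0.029, adjusted p = 4.03e-05) for Tnfrsf1a. For Tnfrsf1b it was -0.14 (SE 0.0281, adjusted p = 8.91e-05). The FPKM ratio of Tnfrsf1a to Tnfrsf1b within a library, which does not depend on scaling, was 1.11 ± 0.0122 in WT and 1.1 ± 0.0185 in Trem2_KO (SD, n = 3).

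Tnfrsf21 and other receptors of the superfamily rose. Tnfrsf21 (ENSMUSG00000023915, chromosome 17, 43016555 to 43089189) encodes DR6, a death domain receptor. It had 205, 205 and 213 CPM in the WT libraries and 334, 324 and 339 CPM in the knockout libraries, and its log2 change was 0.68 (SE 0.0321, adjusted p = 2.61e-24). Tnfrsf12a, the TWEAK receptor Fn14, had 32, 32 and 32 reads in WT and 57, 52 and 58 in Trem2_KO, and a log2 change of 0.68 (SE 0.225, adjusted p = 0.0162). It was not called with DESeq2 (adjusted p = 0.0574). Tnfrsf11a, which encodes RANK, the receptor of RANKL, had 101, 102 and 94.1 CPM in the WT libraries and 115, 125 and 124 CPM in the knockout libraries, and rose by 0.30 (SE 0.0429, adjusted p = 1.34e-07) on the log2 scale. All 3 receptors were higher in each knockout library than in any WT library.

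Tnf, Tnfrsf21 and Tnfrsf12a share chromosome 17 with Trem2, at distances of 13.1, 5.26 and 24.7 Mb. They are 3 of the 4 tested members there, and the other, Tnfsf9, lies 8.75 Mb away. Within 25 Mb of Trem2, 17.5% of 513 tested genes were called higher and 21.4% lower, against 15.2% and 14.8% of the other tested genes. Sequence inherited with the targeted allele and the loss of Trem2 cannot be told apart at these genes. Without the chromosome 17 members, 11 of 46 members were called higher and 10 lower.

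Of the 11 tested TNF receptor superfamily genes, 3 were called higher and 2 lower, against 15.3% and 15.1% of all tested genes. The other 6 were not called. Tnfrsf14, which encodes the LIGHT receptor HVEM, had 47.4, 36.9 and 45.6 CPM in the WT libraries and 56.4, 50.4 and 46.8 CPM in the knockout libraries, which overlapped. Its log2 change of 0.24 (SE 0.0911, adjusted p = 0.0641) was called without WT replicate 1 or Trem2_KO replicate 3 (adjusted p = 0.0060 to 0.0128), with no filter (adjusted p = 0.00115), among protein-coding genes only (adjusted p = 0.0359) and with the replicate number as a block (adjusted p = 0.00178). The decoy receptors Tnfrsf22 and Tnfrsf23 and their neighbour Tnfrsf26 are close relatives on chromosome 7 that could share reads, and their log2 changes were 0.17, 0.01 and -0.06. Tnfrsf4, which encodes OX40 of T cells, had 14 to 33 reads per library and a log2 change of -0.18 (adjusted p = 0.75). Tnfrsf13b, the BAFF and APRIL receptor TACI of B cells, had 23, 45 and 26 reads in WT and 53, 50 and 39 in Trem2_KO. The log2 change, 0.48 (adjusted p = 0.151), was called without WT replicate 2 (adjusted p = 0.0263). B and plasma cell markers summed to 120.1 to 123 CPM in WT and 93.8 to 104 CPM in Trem2_KO, with 3 of 9 tested called lower and 0 higher. Their part in the levels of Tnfrsf13b and Tnfsf13b was not tested.

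**Figure D3:**
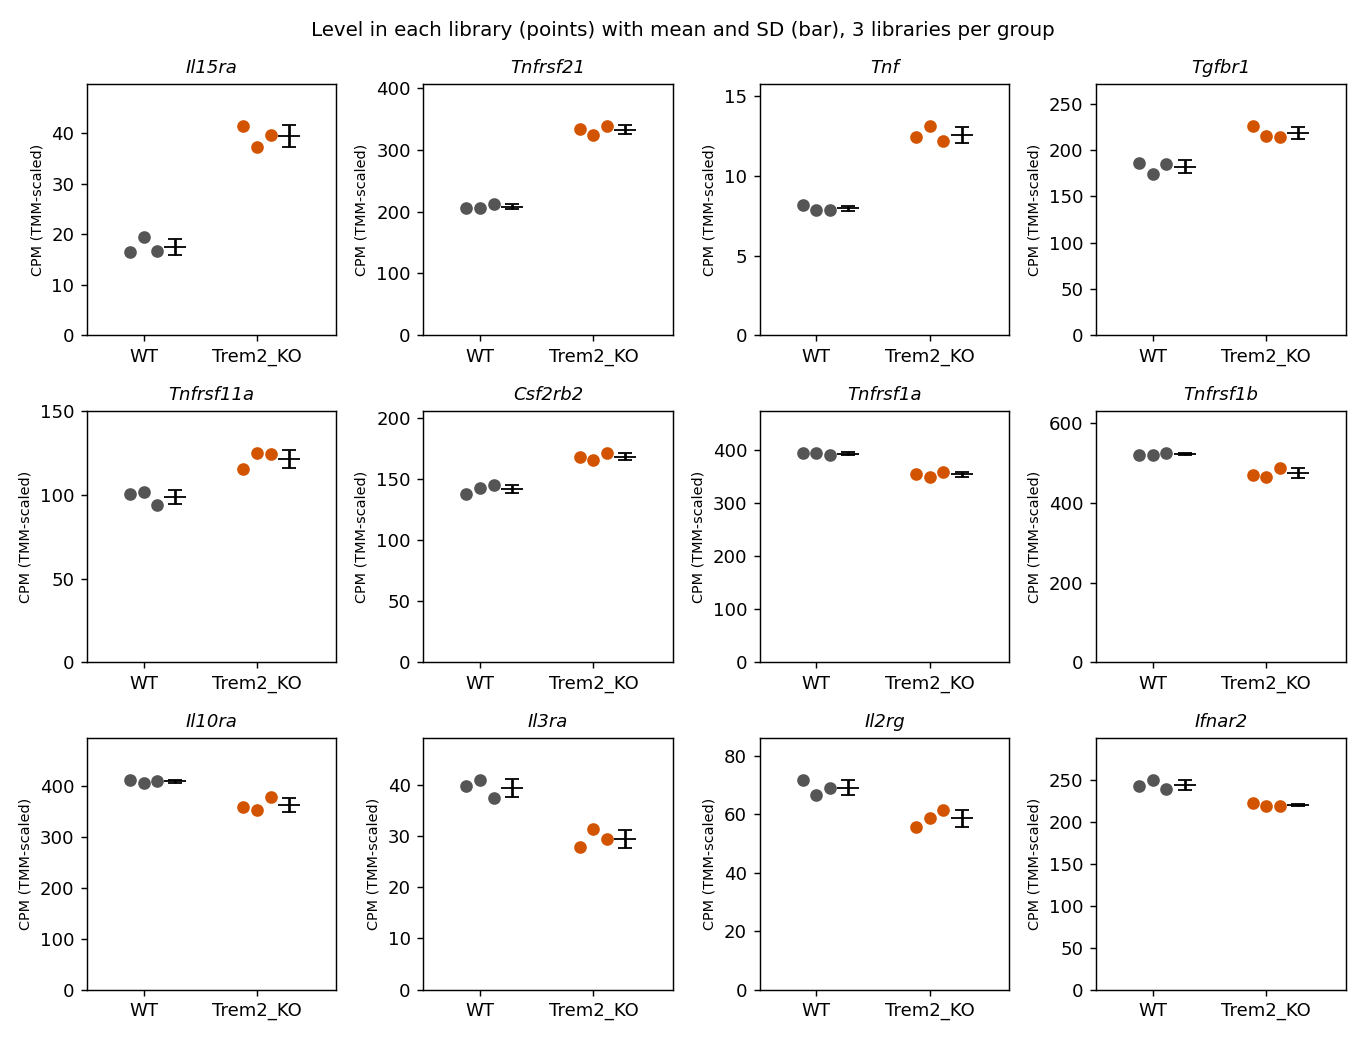
TMM-scaled CPM of 12 members in each library (points), with the mean and SD of the 3 libraries per group beside them and axes starting at 0. Only called members whose groups do not overlap are drawn. The groups are therefore apart in every panel, for example at 16.5 to 19.4 CPM in WT and 37.3 to 41.6 CPM in Trem2_KO for Il15ra.

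Among the receptors for colony-stimulating factors, IL-3 and IL-5, 3 of 6 tested genes rose and 2 fell. Over all tested genes these shares were 15.3% and 15.1%. Csf1r, the receptor tyrosine kinase that macrophages need to survive, had 7216, 7394 and 7446 CPM in the WT libraries and 7255, 7383 and 7349 CPM in the knockout libraries. Its groups overlapped, and the 95% interval of its log2 change was -0.05 to 0.04. Csf2ra, the chain that binds GM-CSF, had 514, 527 and 522 CPM in the WT libraries and 565, 551 and 543 CPM in the knockout libraries, and a log2 change of 0.09 (SE 0.0276, adjusted p = 0.0135). Csf2rb, the signalling chain shared with the IL-3 and IL-5 receptors, had 457, 468 and 489 CPM in the WT libraries and 495, 503 and 513 CPM in the knockout libraries, and a log2 change of 0.10 (SE 0.029, adjusted p = 0.0086). For both chains every knockout library was higher than every WT library. Csf2rb2, the mouse beta chain specific for IL-3, had 138, 143 and 145 CPM in the WT libraries and 168, 165 and 171 CPM in the knockout libraries, also without overlap. Its log2 change was 0.25 (SE 0.0368, adjusted p = 3.06e-07), but Csf2rb and Csf2rb2 are near-identical copies whose reads could be split between them. The call was lost for Csf2ra without WT replicate 1 or Trem2_KO replicate 1 or 2 (adjusted p = 0.0518 to 0.106), and for Csf2rb without WT replicate 1 (adjusted p = 0.102). It was also lost for Csf2ra with no filter (adjusted p = 0.0731) and for Csf2rb on log2(FPKM + 1) with limma (adjusted p = 0.0779).

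Il3ra, the IL-3 binding chain that pairs with these beta chains, went the other way. It had 39.8, 40.9 and 37.5 CPM in the WT libraries and 27.7, 31.3 and 29.3 CPM in the knockout libraries, and a log2 change of -0.42 (SE 0.0663, adjusted p = 9.82e-07). Every knockout library was below every WT library. Csf3r, the G-CSF receptor, had 187, 195 and 204 CPM in the WT libraries and 181, 178 and 188 CPM in the knockout libraries, so that the groups overlapped. Its log2 change of -0.10 (SE 0.0361, adjusted p = 0.0282) was no longer called without WT replicate 2 or 3 or Trem2_KO replicate 1 or 2 (adjusted p = 0.0527 to 0.182), with total counts as the scaling (adjusted p = 0.142) and with DESeq2 (adjusted p = 0.0817). Markers of neutrophils, the cells best known for Csf3r, summed to 5.05 to 6.07 CPM in WT and 4.82 to 6.07 CPM in Trem2_KO, and Ly6g had no read. Il5ra, the IL-5 binding chain, was not tested, with 5 reads over all libraries.

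Of the 7 tested interferon and IL-10 family receptors, 3 fell and 0 rose, against 15.1% and 15.3% of all tested genes. Il10ra, the specific chain of the receptor for the anti-inflammatory cytokine IL-10, had 412, 406 and 410.2 CPM in the WT libraries and 359.5, 353 and 379 CPM in the knockout libraries. Its groups did not overlap, and the log2 change was -0.17 (SE 0.030, adjusted p = 8.5e-06). Its partner Il10rb, which also serves other receptors of the family, had 185, 189 and 180.4 CPM in the WT libraries and 172, 173 and 173 CPM in the knockout libraries. The change of -0.10 (SE 0.0349, adjusted p = 0.0286) on the log2 scale was no longer called without WT replicate 1 or 2 or Trem2_KO replicate 1 or 2 (adjusted p = 0.0694 to 0.122), with total counts as the scaling (adjusted p = 0.15) and with DESeq2 (adjusted p = 0.0668). Ifnar2, a chain of the type I interferon receptor, had 243, 249.8 and 239 CPM in the WT libraries and 222, 219 and 219 CPM in the knockout libraries. These did not overlap, and the log2 change was -0.15 (SE 0.0326, adjusted p = 0.000322).

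The other interferon receptor chains were not called. The 95% interval of the log2 change was -0.06 to 0.09 for Ifnar1, the partner of Ifnar2. For the interferon-gamma receptor it was -0.07 to 0.04 for the binding chain Ifngr1 and -0.14 to 0.02 for the signalling chain Ifngr2. Ifngr1 had 595, 603 and 574 CPM in the WT libraries and 583, 587 and 581 CPM in the knockout libraries, which overlapped. Il20rb, a chain of the IL-20 and IL-24 receptors, had 46 to 70 reads per library and a log2 change of 0.41 (adjusted p = 0.106), with groups that did not overlap.

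Among the receptors of the common gamma chain family and IL-13, 2 of 7 rose and 1 fell. Over all tested genes these shares were 15.3% and 15.1%. Il15ra (ENSMUSG00000023206, chromosome 2, 11705290 to 11734317) encodes the chain that binds IL-15 and presents it to neighbouring cells. It had 16.5, 19.4 and 16.7 CPM in the WT libraries and 41.6, 37.3 and 39.7 CPM in the knockout libraries. The highest WT library was far below the lowest knockout library, and the log2 change was 1.17 (SE 0.0756, adjusted p = 1.08e-18). The common gamma chain itself, Il2rg, had 71.8, 66.6 and 69.2 CPM in the WT libraries and 55.8, 58.6 and 61.6 CPM in the knockout libraries. Its log2 change was -0.24 (SE 0.052, adjusted p = 0.000267), and its groups did not overlap. Il2rb, the remaining chain of the IL-15 receptor, had 15 to 32 reads per library and was not called (log2 change -0.34, adjusted p = 0.466). Transcripts of the ligand Il15 had 35.3 CPM in WT and 34.1 CPM in Trem2_KO on average and were not called (adjusted p = 0.628).

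Il7r, the IL-7 receptor chain of lymphocytes and of fetal macrophage precursors, had 2, 7 and 3 reads in WT and 18, 14 and 19 in Trem2_KO, and a log2 change of 1.94 (SE 0.502, adjusted p = 0.00201). These are 0.128, 0.448 and 0.192 CPM and 1.04, 0.85 and 1.12 CPM, and 3 reads, which 0 observed reads allow, equal 0.173 to 0.192 CPM. Il7r passed the filter only through its knockout libraries, so it could be tested only because it differed. Markers of T, NK and innate lymphoid cells, which are known for Il7r, summed to 8.37 to 9.91 CPM in WT and 9.23 to 9.59 CPM in Trem2_KO. Of the 18 genes on that list 15 did not pass the filter, and 0 of the other 3 were called. The part of these cells in the level of Il7r was not tested. Il4ra and Il13ra1, the chains through which IL-4 and IL-13 act on macrophages, were not called, with 95% intervals of -0.07 to 0.08 and -0.09 to 0.06. Il21r, the IL-21 receptor, had 16 to 44 reads per library and was not called (log2 change 0.06, adjusted p = 0.928).

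The IL-6 and IL-12 family receptors held 2 rises and 0 falls among 4 tested genes, against 15.3% and 15.1% of all tested genes. Il6ra, the chain that binds IL-6, had 321, 320.4 and 334 CPM in the WT libraries and 342, 349.8 and 346 CPM in the knockout libraries, without overlap. Its log2 change of 0.09 (SE 0.0302, adjusted p = 0.0203) was no longer called without WT replicate 1 or 2 or Trem2_KO replicate 2 (adjusted p = 0.0794 to 0.11). The call was also lost with no filter (adjusted p = 0.0942) and on log2(FPKM + 1) with limma (adjusted p = 0.0782). Il27ra, the IL-27 receptor chain, had 40, 35 and 38 reads in WT and 50, 61 and 72 in Trem2_KO, also without overlap. The change of 0.58 (SE 0.216, adjusted p = 0.0349) on the log2 scale was no longer called without WT replicate 1, 2 or 3 or Trem2_KO replicate 2 or 3 (adjusted p = 0.0591 to 0.185), nor with DESeq2 (adjusted p = 0.106). Nor was it called with no filter (adjusted p = 0.0673) or with limma-voom (adjusted p = 0.0534). Il6st, the gp130 chain that signals for both and is outside the name rule, had 90.7, 90.6 and 94.5 CPM in the WT libraries and 113, 114 and 118 CPM in the knockout libraries, and rose by 0.32 (SE 0.0421, adjusted p = 1.53e-08) on the log2 scale. Il11ra1 also pairs with gp130, has near-identical copies in Il11ra2 and was not called (log2 change 0.02, adjusted p = 0.846). Il12rb1 of the IL-12 and IL-23 receptors had 1 to 19 reads per library and was not called (log2 change 0.40, adjusted p = 0.635).

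Il17ra, the chain shared by IL-17 receptors, had 173, 172 and 175 CPM in the WT libraries and 156, 162 and 163 CPM in the knockout libraries. The groups did not overlap, but the log2 change of -0.11 (SE 0.0358, adjusted p = 0.0115) was no longer called without Trem2_KO replicate 1 (adjusted p = 0.0761), nor with total counts as the scaling (adjusted p = 0.0722). Il17rc, its partner for IL-17A, had 24 to 45 reads per library and a log2 change of 0.48 (adjusted p = 0.173). The IL-18 receptor chains Il18r1 and Il18rap had 1 to 7 reads per library and were not tested.

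TGF-beta receptor genes rose in 2 of 5 tested members and fell in 0, against 15.3% and 15.1% of all tested genes. Tgfbr1, the type I kinase that phosphorylates SMAD proteins, had 186, 174 and 185 CPM in the WT libraries and 226, 215 and 214 CPM in the knockout libraries, without overlap, and a log2 change of 0.26 (SE 0.0353, adjusted p = 2.24e-08). Its partner Tgfbr2, the type II kinase that binds the ligand, was not called, with a 95% interval of -0.10 to 0.01. Tgfbr3, the co-receptor betaglycan, had 37, 18 and 30 reads in WT and 36, 61 and 56 in Trem2_KO, so that the groups overlapped. On the log2 scale its change of 0.74 (SE 0.26, adjusted p = 0.0262) was no longer called without WT replicate 2 or Trem2_KO replicate 2 or 3 (adjusted p = 0.0827 to 0.191), nor with DESeq2 (adjusted p = 0.0896). Tgfbr3l, a relative of betaglycan, had 13 to 40 reads per library and was not called (log2 change 0.57, adjusted p = 0.189). Tgfbrap1, which encodes a receptor-associated protein, had a log2 change of 0.10 (adjusted p = 0.0979) and was called without WT replicate 3 (adjusted p = 0.0369) and with total counts as the scaling (adjusted p = 0.0267).

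Ratios of deposited FPKM were compared in 8 pairs of partner chains or, for Tnfrsf1a and Tnfrsf1b, of separate receptors for TNF. The test was a two-sided exact permutation test over libraries that cannot go below p = 0.1. Il15ra over Il2rg was 0.136 ± 0.0178 in WT and 0.362 ± 0.0323 in Trem2_KO (SD, n = 3). Tgfbr1 over Tgfbr2 was 0.661 ± 0.0247 in WT and 0.82 ± 0.0254 in Trem2_KO. Ifnar1 over Ifnar2 was 0.362 ± 0.0147 in WT and 0.405 ± 0.00971 in Trem2_KO. These 3 ratios did not overlap between the groups (exact p = 0.1 each, 0.267 after adjustment over the 8 pairs). The ratios of Csf2ra to Csf2rb, Ifngr1 to Ifngr2, Il10ra to Il10rb, Il4ra to Il13ra1 and Tnfrsf1a to Tnfrsf1b overlapped (exact p = 0.2 to 0.9).

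**Figure D4:**
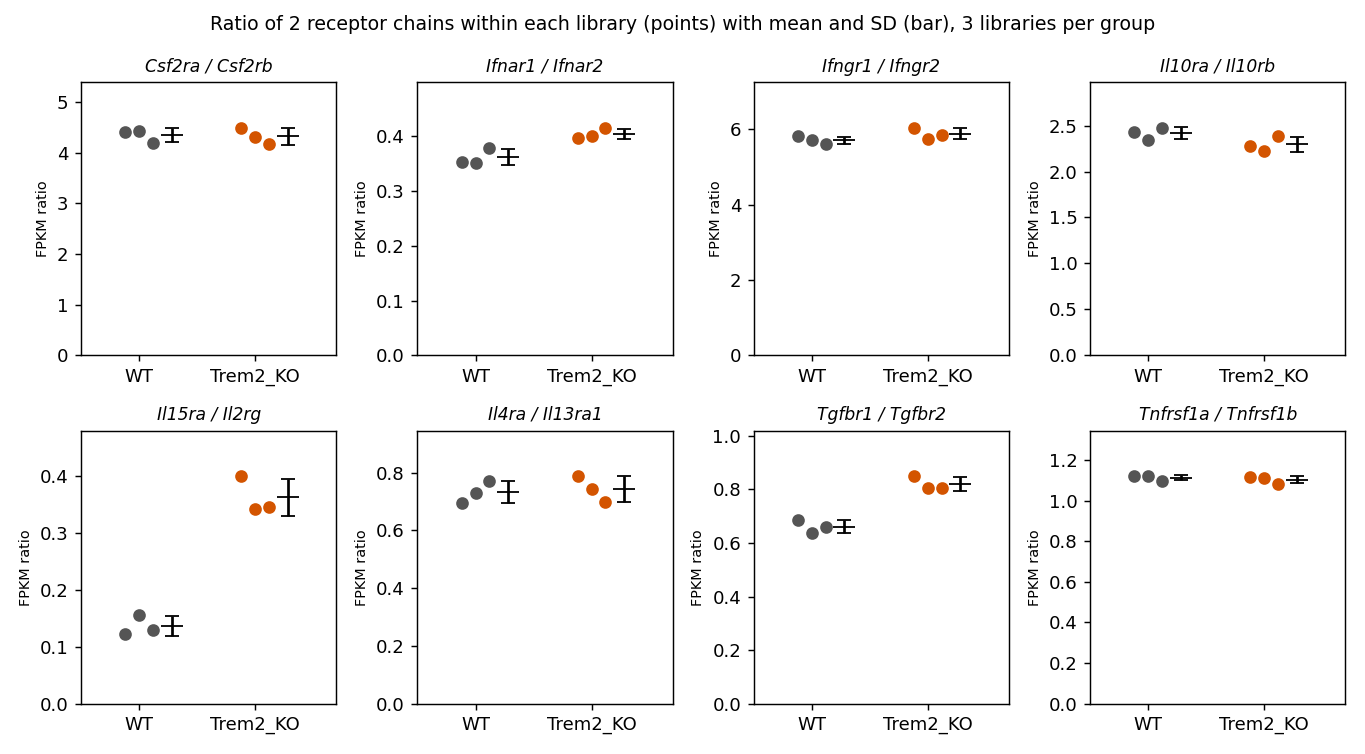
Ratio of the deposited FPKM of a pair of genes in each library (points), with the mean and SD of 3 libraries per group and axes starting at 0. The pairs are partner chains, except Tnfrsf1a and Tnfrsf1b, which are separate receptors. The groups are apart for Ifnar1 over Ifnar2, Il15ra over Il2rg and Tgfbr1 over Tgfbr2, and overlap in the other 5 panels.

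Genes around these receptors were read from 6 lists, beside the 15.3% of all tested genes called higher and 15.1% called lower. Of 18 tested cytokine ligand genes outside the name rule, 3 were called higher and 2 lower, with a median log2 change of -0.08 against -0.01 for all genes. Tgfb3, a ligand of the TGF-beta receptors, had 14.2, 14.1 and 15.2 CPM in the WT libraries and 42, 44.4 and 45.6 CPM in the knockout libraries, and a log2 change of 1.60 (SE 0.074, adjusted p = 1.02e-24). Tgfb1, the main form, had 336, 346 and 336 CPM in the WT libraries and 302, 329 and 322 CPM in the knockout libraries. Its log2 change of -0.10 (adjusted p = 0.016) was no longer called without WT replicate 2 or Trem2_KO replicate 1 (adjusted p = 0.078 to 0.186), nor with total counts as the scaling (adjusted p = 0.11). Il10, the ligand of Il10ra, had 22.5, 20.6 and 21.4 CPM in the WT libraries and 33.6, 31.1 and 31.3 CPM in the knockout libraries, and rose by 0.57 (SE 0.0737, adjusted p = 8.22e-09) on the log2 scale. Il16, a chemoattractant of CD4+ cells, fell by 0.23 on the log2 scale. Csf1, the ligand of Csf1r, had 3.39 and 3.35 CPM on average and was not called (adjusted p = 0.962), and Csf2, which encodes GM-CSF, had no read.

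Of 17 tested receptor genes outside the name rule, 5 rose and 3 fell, with a median log2 change of 0.05. Cd40, a TNF superfamily receptor used in antigen presentation, had 26.7, 28.5 and 28.6 CPM in the WT libraries and 22.5, 20.9 and 20.8 CPM in the knockout libraries, and a log2 change of -0.38 (SE 0.0761, adjusted p = 7.39e-05). The TGF-beta co-receptor Eng, which is also abundant in endothelial cells, rose by 0.41, and the activin receptor Acvr2b by 0.61 on the log2 scale.

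Downstream, 7 of 34 TNF receptor signalling genes were called higher and 3 lower, with a median log2 change of -0.00191. Tnfaip3, which encodes the NF-kB inhibitor A20, had 92.3, 96.3 and 106 CPM in the WT libraries and 197, 201 and 202 CPM in the knockout libraries, and a log2 change of 1.02 (SE 0.0408, adjusted p = 3.67e-27). The ubiquitin ligase gene Birc3 rose by 0.35 and the NF-kB inhibitor gene Nfkbia by 0.26, while Relb, which encodes an NF-kB subunit, fell by 0.30 on the log2 scale. JAK-STAT genes held 7 rises and 2 falls among 23 tested, with a median of 0.00458. The phosphatase gene Ptpn6 fell by 0.16, while the inhibitor genes Pias1 and Socs2 rose by 0.39 and 0.69 on the log2 scale.

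SMAD signalling genes held 8 rises and 1 fall among 17 tested, with a median log2 change of 0.19. The inhibitory Smad7 had 99.4, 97.6 and 88.2 CPM in the WT libraries and 118, 120.5 and 131 CPM in the knockout libraries, and a log2 change of 0.37 (SE 0.0453, adjusted p = 5.02e-09). The ubiquitin ligase gene Smurf2 rose by 0.35, the transcriptional regulator Id2 by 0.27 and the SMAD repressor gene Skil by 0.22. Among 7 genes of receptor shedding, 2 rose and 1 fell, with a median of 0.06. The metalloprotease gene Adam8 had 2.24, 2.24 and 2.05 CPM in the WT libraries and 10.3, 11.3 and 11.4 CPM in the knockout libraries, and a log2 change of 2.34 (SE 0.16, adjusted p = 1.06e-17). Adam17, which encodes the main sheddase of TNF and its receptors, had 322 and 337 CPM on average and was not called (adjusted p = 0.0907). Rhbdf2, which encodes a cofactor of ADAM17, fell by 0.15 on the log2 scale. The related Rhbdf1 had a log2 change of 0.42 (adjusted p = 0.0205), which was no longer called without WT replicate 1 or 2 or Trem2_KO replicate 1 (adjusted p = 0.0679 to 0.138), nor with DESeq2 (adjusted p = 0.0731).

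Markers of the remaining cell types were read in the same libraries, beside the 15.3% of all tested genes called higher and 15.1% called lower. Their part in these results was not tested. Monocyte markers held 5 rises and 2 falls among 10, with a median log2 change of 0.29. Their sums, which did not follow that median, were 555 to 573 CPM in WT and 523 to 545 CPM in Trem2_KO. Dendritic cell markers held 1 rise and 1 fall among 7 (443 to 454 and 422 to 441 CPM), with a median log2 change of 0.18. Hepatocyte markers held 2 rises and 8 falls among 15 (1737 to 1790.0 and 1458 to 1488 CPM), with a median log2 change of -0.14. Stellate cell markers held 2 rises and 0 falls among 9 (204 to 213 and 250.0 to 254 CPM). Only 3 of these 9 had a log2 change above 0, and the median was -0.39, so the sum did not follow most of them. Cholangiocyte markers summed to 1.79 to 3.32 CPM in WT and 1.7 to 2.66 CPM in Trem2_KO, and Cldn4 had no read. Basophil and mast cell markers summed to 2.87 to 3.0 and 3.58 to 4.51 CPM, and Ms4a2, Fcer1a and Prss34 had no read.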

How the data were processed

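Gene expression was deposited as tables of raw counts and of FPKM for the same 6 libraries of sorted Kupffer cells. The deposited counts are whole numbers without normalization. In the deposited FPKM, each value is a count over the gene's length and a library constant, which lies 0.989 to 1.02 times the library's total. The tools given by the submitters' processing notes include DESeq2 1.16.1, featureCounts 1.5.0-p3 and the aligner HISAT2 2.0.5. The strand setting and the handling of reads that match several genes are unknown here, so overlapping genes and near-identical copies are uncertain.

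The test was the robust quasi-likelihood test of edgeR 4.0.16 (R 4.3.3) on the counts, after filterByExpr and TMM, with genotype as its single term and Benjamini-Hochberg adjustment over 13776 genes. SE and 95% intervals follow from its F statistic. It was first tested on simulated data with known changes, where the share of false calls was somewhat above the nominal level. DESeq2 1.42.0, limma 3.58.1 and other settings were alternatives, as was leaving out each library. Overlaps were read from GENCODE M21, whose coordinates equal the deposited ones (GRCm38) for 98.3% of 54495 shared genes.

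Values in every library are given for called members reaching 1 CPM in their higher group and the 6 members of highest FPKM. They are also given for Tnfrsf14 and Tnfrsf13b, which were not called and fall outside these criteria. Up to 4 called genes per other list are named, by smallest p, beside a few uncalled ligands and Adam17 chosen after their values were seen. One gene that this rule would name is not reported here. The members and lists were chosen with earlier results of these data known.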

Additional observations from a re-analysis of the deposited data

How the results depend on the processing

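Results were recomputed under 20 alternatives to the calls of 4182 genes, 14 members higher and 10 lower, and no called member changed sign in any of them. Of the 24 called members, 13 lost their call at most when the biological coefficient of variation was fixed, and Il15ra kept it there too. Tnfsf18 also kept its call there, but it was tested in 19 alternatives, since a stricter filter left it out. It entered the main test only through its knockout libraries. That coefficient was estimated at 0.0378. Fixed at 0.1, the calls were 1487 genes, 8 members higher and 2 lower, and fixed at 0.2 they were 371 genes, 3 members higher and 0 lower (Il15ra, with Il7r and Tnfsf18, which both passed the filter only through the group where they are high). With log2(FPKM + 1) and no filter, a scale that understates low genes, they were 1979 genes, 8 members higher and 6 lower. At an adjusted p under 0.01 they were 2849 genes, 9 members higher and 6 lower, and with DESeq2 3096 genes, 11 members higher and 7 lower. Of the 26 members that overlap no other gene 9 were higher and 4 lower. Leaving out each library in turn gave 3367 to 3913 genes, 10 to 14 members higher and 7 to 9 lower. The settings named beside single genes are not all of those in which a call was lost or gained. Replicate numbers did not pair the libraries: the deviations of same-numbered libraries correlated at -0.00787, 0.00313 and 0.0361, and 2 of 6 libraries correlated best with their own number. With the replicate number as a block, the calls were 4230 genes, 15 members higher and 10 lower, Tnfrsf14 being the added member (adjusted p = 0.00178). Members with few reads have wide intervals, so a change may not have been detectable in them at this depth.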
